A study of Homo sapiens with 14 samples.

Results

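Knockdown of PPHLN1 in K562 cells was compared with a control guide across every gene that either group expressed. Of 35805 gene rows in the deposited table, 15913 genes had a mean above 0, on the log2 scale described below, in the PPHLN1 group or in the control guide group. K562 is an established human erythroleukaemia line. The cells carried dCas9-KRAB, a Cas9 that binds but does not cut DNA, fused to a repressor domain, which lowers transcription where a guide RNA places it (CRISPR interference). The PPHLN1 group had 2 libraries, each with its own guide (sg1-PPHLN1 and sg2-PPHLN1), and the control group had 3 libraries with the guide sgAAVS1, which targets a site unrelated to the genes under study. Transduced cells were harvested for RNA on day 7. Cells with dCas9 and no guide, called untransduced here (2 libraries), served as a second control. Knockdowns of TASOR (2 libraries), TASOR2 (3 in the labels) and MPP8 (2) are used only to show where the PPHLN1 values differ from theirs. All groups share the line and dCas9-KRAB, while culture, batch and library cannot be told apart from the group. Nothing in the labels says whether libraries of a group came from separate cultures.

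PPHLN1 encodes Periphilin, an RNA-binding subunit of the human silencing hub (HUSH). HUSH also holds TASOR, its scaffold, and MPP8, whose chromodomain binds methylated lysine 9 of histone H3. The complex silences young LINE-1 elements, integrated viruses and some genes that lack introns, acting through the methyltransferase SETDB1 and the chromatin compactor MORC2. In HUSH2 the scaffold is TASOR2. KRAB zinc finger genes, many of them in clusters on chromosome 19, are known to carry the same histone mark over their bodies. Interferon-stimulated genes encode antiviral proteins and are switched on by interferon or by factors of the IRF and STAT families.

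The deposited values are group means, so no SD and no p-value over libraries can be given. A level below is a group mean of log2 CPM, which is the log2 of reads scaled to a common library depth, and a difference is the PPHLN1 mean minus another mean on that log2 scale. Each ± gives the distance from a difference to either end of its 95% Poisson interval and so covers counting error alone. Calls of higher or lower needed a difference of 1 or more in size, a Poisson interval clear of 0, and a level above 0 in whichever mean was larger. The mean depth per library was 5963710 reads for PPHLN1, 6202795 for sgAAVS1 and 7406968 for untransduced cells. Of 9 erythroid markers of K562, 9 were above 0 in both groups, with a summed level of 10.39 in sgAAVS1 and 10.60 in PPHLN1. The summed levels of marker lists of T cells, B cells, epithelium, fibroblasts and monocytes lay between 3.81 and 6.35 in sgAAVS1 and between 4.4 and 6.61 in PPHLN1, and 2 of 5 T cell markers had no reads in either group. In bulk RNA, a change in the number of cells that express a gene and a change in RNA per cell cannot be told apart.

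PPHLN1 itself was lower in its own knockdown than in every other group. Its mean was 5.27 in the PPHLN1 group, against 6.57 in sgAAVS1, 6.69 in untransduced cells, 6.80 in TASOR, 6.80 in TASOR2 and 6.66 in MPP8. The difference from sgAAVS1 was -1.29 ± 0.15, which leaves 40.8% of the control level. The other subunit genes were not called. FAM208A, which encodes TASOR, stood at 7.22 in sgAAVS1 and 7.39 in PPHLN1, and MPHOSPH8, which encodes MPP8, at 6.52 and 6.64. FAM208B, which encodes TASOR2, was 0.73 ± 0.07 above sgAAVS1 and 0.49 ± 0.07 above untransduced cells, under the threshold of 1. In the list of 36 HUSH subunits, effectors and partners, PPHLN1 was the only call.

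PPHLN1 lies on chromosome 12 (GRCh38, 42238447 to 42459715, plus strand), and 2 of its neighbours were also low. Of its 26 annotated transcripts, 18 start 27 to 63 bases from the start of ZCRB1, a splicing factor gene that runs the other way (42312078 to 42326118, minus strand). ZCRB1 had means of 5.86 in sgAAVS1, 5.80 in untransduced cells, 5.91 in TASOR, 5.90 in TASOR2 and 5.96 in MPP8, against 4.97 in PPHLN1. That difference of -0.89 ± 0.17 falls just short of a call, and the PPHLN1 group is the lowest of the 6. RP11-351C21.2 (42361267 to 42361703, plus strand) is a single-exon transcript of 437 bases inside an intron of PPHLN1, where reads of unspliced PPHLN1 RNA would also fall. It stood between 2.09 and 2.67 in the 5 other groups and at -2.65 in PPHLN1, where its mean corresponds to 1 read in one library and 0 in the other. Its difference of -4.92 ± 1.08 was the largest decrease among the genes tested. YAF2, a Polycomb protein gene whose start lies 98 bases from the outermost PPHLN1 transcript, had means of 5.15 in sgAAVS1 and 5.27 in PPHLN1. GXYLT1, a glycosyltransferase gene farther out, stood at 5.83 and 5.81, and PRICKLE1, a planar polarity gene at the other end, at 2.47 and 3.05. None of these 3 was called, and reads of the overlapping PRICKLE1 and PPHLN1 ends are separated only if the authors counted by strand.

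**Figure D1:**
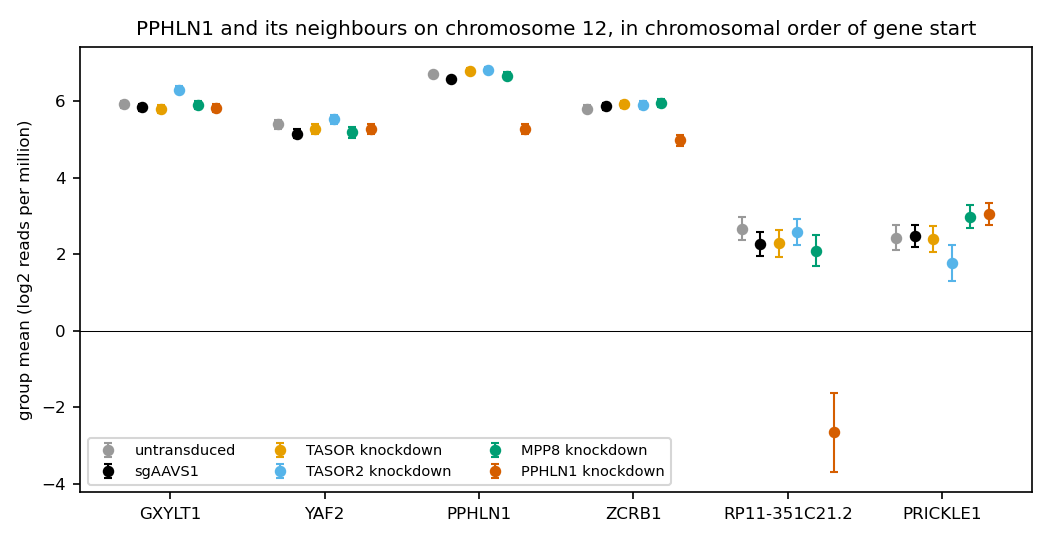
Group means (log2 CPM, vertical axis) of PPHLN1 and 5 neighbours, with bars for the 95% counting interval of each mean. The PPHLN1 knockdown (red-orange) is lowest at PPHLN1 (5.27), ZCRB1 (4.97) and RP11-351C21.2 (-2.65), and lies among the other groups at GXYLT1 and YAF2.

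Across all genes tested, 446 were higher in PPHLN1 than in sgAAVS1 (2.8%) and 96 were lower (0.603%). The controls differ from each other as well: 206 of 15854 genes were higher in untransduced cells than in sgAAVS1 (1.3%) and 36 were lower (0.227%). Of the 446 higher genes, 88 were also higher in untransduced cells. The widest difference shows this: THBD, the thrombomodulin gene, was chosen after its values were seen. It stood between 3.13 and 3.46 in every group except sgAAVS1, where it was at -2.73. A gene was therefore also asked to pass in the same direction against untransduced cells. Against both controls 188 genes were higher (1.18%) and 48 were lower (0.302%).

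The scale of the deposited values bears on that split. The median difference over all genes was 0.17 against sgAAVS1 and 0.14 against untransduced cells. Taken off the log2 scale, the deposited means sum to 1323009 in PPHLN1, 1182967 in sgAAVS1 and 1196568 in untransduced cells. The gene rows thus do not add up to the same total in each group. Of the calls against sgAAVS1, 82.3% were higher. When each group was centred on its own median the calls were 273 higher and 146 lower (65.2% higher), and after quantile normalization they were 251 and 202 (55.4% higher). Many of the higher genes were near silent in the control: 218 of 446 had an sgAAVS1 mean below 0 (48.9%), against 3.36% of all genes tested. Such a gene enters only through a high PPHLN1 mean, so it had to differ. Only 26 higher genes and 8 lower genes had an sgAAVS1 mean above 4, where 10764 of the genes tested lie.

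**Figure D2:**
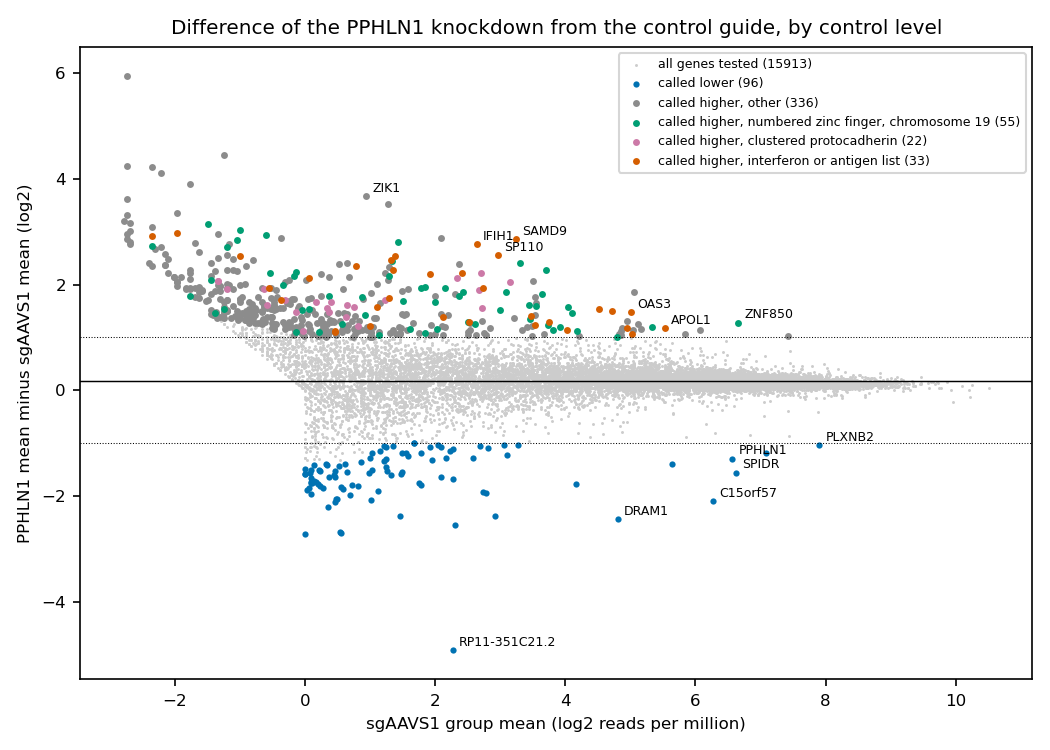
Difference of the PPHLN1 mean from the sgAAVS1 mean (log2, vertical) against the sgAAVS1 mean (log2 CPM, horizontal) for 15913 genes. The solid line is the median of all genes (0.17) and the dotted lines mark differences of 1 and -1. Called genes are coloured by list, and RP11-351C21.2 is the lowest point at -4.92.

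Interferon-stimulated genes held more higher genes than any other list apart from the zinc finger genes. Of 125 tested members of a list of 190, 27 were higher than sgAAVS1 (21.6%, beside 2.8% of all genes). Against both controls 23 were higher, beside 1.18% of all genes. None was lower, but only 0.603% of all genes were, so few would be. The counts by role that follow also stand beside these shares. The list's median difference was 0.37, against 0.17 over all genes. Among the 119 members with an sgAAVS1 mean above 0, 22 were higher and the median was 0.34. Under median centring or quantile normalization the count was 21 or 20.

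Sensors of foreign RNA and DNA gave 4 higher of 13 tested (30.8%, beside 2.8% of all genes): IFIH1, DHX58, OAS3 and DDX60L. IFIH1, which encodes MDA5, a sensor of long double-stranded RNA, had means of 2.64 in sgAAVS1, 3.16 in untransduced cells and 5.40 in PPHLN1, a difference of 2.76 ± 0.30. It stood at 2.84 in TASOR, 5.39 in TASOR2 and 5.04 in MPP8. TASOR thus sits with the controls, and the other knockdowns sit near PPHLN1. OAS3, a synthetase that activates RNase L, rose from 5.01 in sgAAVS1 to 6.49 in PPHLN1 (1.48 ± 0.14), with untransduced cells at 5.34. MAVS, the adaptor of RNA sensing (0.15 ± 0.04), and ADAR, which edits double-stranded RNA (0.29 ± 0.05), were not called.

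Antiviral effectors gave 10 higher of 39 tested (25.6%, beside 2.8% of all genes), the most of any role. SAMD9, an effector that blocks poxvirus growth, had means of 3.24 in sgAAVS1, 3.08 in untransduced cells, 4.14 in TASOR, 6.15 in TASOR2, 5.89 in MPP8 and 6.09 in PPHLN1. The difference from sgAAVS1 was 2.86 ± 0.24, a 7.25-fold level. Its neighbour and paralog SAMD9L was higher too. XAF1, a pro-apoptotic gene of this role, stood at -2.35 in sgAAVS1, -1.23 in untransduced cells and 0.57 in PPHLN1. MX1, a GTPase that blocks influenza virus, went from -1.97 in sgAAVS1 and -1.56 in untransduced cells to 1.01 (2.98 ± 1.07), from few reads in the controls. ZC3HAV1, a binder of viral RNA, and HELZ2, a helicase, differed by 0.26 ± 0.06 and 0.41 ± 0.07 and were not called.

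Interferon receptors, their kinases and the transcription factors of the list showed no call. Of 8 receptors and kinases and 10 transcription factors tested, 0 were called, with median differences of 0.18 and 0.30. Since 2.8% of all genes were called higher, 0 calls among so few genes lie near that share. JAK1 differed by 0.19 ± 0.07, TYK2 by 0.20 ± 0.07, STAT2 by 0.15 ± 0.07 and STAT3 by 0.08 ± 0.06. These 4 genes were the best expressed of their roles, and their differences lie close to the 0.17 median of all genes. Like them, 6805 genes had PPHLN1 and sgAAVS1 means that average above 6, and 0.0735% of those were called higher. The largest difference of a transcription factor was 0.60. Feedback regulators gave 2 higher of 7 (USP18 and ISG15), while SOCS3 (0.03 ± 0.12) and PIAS1 (0.20 ± 0.11) were not called.

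Higher genes of other roles included SP110 and GIMAP2, each the only call of its role. SP110, a nuclear body protein gene, stood at 2.96 in sgAAVS1, 3.11 in untransduced cells and 5.52 in PPHLN1 (2.55 ± 0.27), while its relatives PML (0.32 ± 0.07) and SP100 (0.39 ± 0.12) were not called. GIMAP2, an immune GTPase gene, stood at 1.38, 1.85 and 3.92 in the same order (2.54 ± 0.48). Of the apolipoprotein L genes, 3 of 5 tested were higher. APOL1, which encodes the trypanosome lytic factor, went from 5.53 in sgAAVS1 and 5.57 in untransduced cells to 6.71 (1.17 ± 0.13), and its neighbour APOL2 from 4.72 and 4.80 to 6.21 (1.49 ± 0.16). APOL1 falls below the threshold, to 0.97, when groups are centred on their medians. Of 10 genes of ubiquitin-like conjugation 2 were higher, and of 23 other induced genes 4 were, beside 2.8% of all genes.

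Genes of antigen presentation were higher as well, all 6 calls among genes of the MHC class I route. Of 25 tested members of the list, 6 were higher than sgAAVS1 (24%, beside 2.8% of all genes). The same 6 were higher than both controls, none was lower, and the 3 tested class II genes gave 0 calls. The median difference was 0.39. PSMB9 and PSMB8 encode the immunoproteasome subunits that shape peptides for class I molecules. PSMB9 stood at 1.32 in sgAAVS1, 1.59 in untransduced cells and 3.79 in PPHLN1 (2.47 ± 0.49), and PSMB8 at 1.36, 1.47 and 3.64 (2.28 ± 0.49). TAP1, a subunit of the peptide transporter, stood at 4.51, 4.71 and 6.04 (1.53 ± 0.17). These 3 genes and PSMB8-AS1 lie side by side on chromosome 6 (32840717 to 32859585), and PSMB8-AS1 overlaps PSMB9 on the same strand, so their reads cannot be fully separated. HLA-B went from 2.12 and 2.21 to 3.49 (1.38 ± 0.41) and HLA-C from 3.53 and 3.52 to 4.77 (1.24 ± 0.25). The HLA-C row spans HLA-B on the same strand, and class I genes share sequence, so these values are uncertain.

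Promoters of the genes above were searched for the core of the interferon-stimulated response element, GAAA followed by any 2 bases and GAAA again, which IRF factors bind, and for the core of the gamma-activated site, TTCNNNGAA, which STAT factors bind. Both strands were searched, and matches of one motif may overlap those of the other. RefSeq windows of 300 bases, from 250 before to 50 after the start (GRCh38.p14), were found for 10796 of the genes tested. The response element core was in 3.57% of all 35116 windows and in 2.86% of those of genes tested. It was in 14 of 24 windows of higher interferon and antigen presentation genes (58.3%) and in 31 of 87 windows of members that were not called (35.6%). Outside those lists it was in 7 of 101 windows of genes higher than both controls (6.93%). It was in 0 of 23 windows of lower genes. TTCNNNGAA was in 4 of the 24 (16.7%), in 14 of the 87 not called (16.1%) and in 6.31% of windows of genes tested. Of 309 genes tested with the response element core, 27 were higher (8.74%), and of 10487 without it, 228 were (2.17%).

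The windows of 3 genes with wide differences are shown 5′ to 3′ on the coding strand, with matches to that core or its reverse complement in capitals, to show how many cores each holds and where. SAMD9 (chr7:93117930-93118229, minus strand) has 1 match, 136 to 127 bases before the start. IFIH1 (chr2:162318635-162318934, minus strand) has 3, of which 2 overlap, and the same window holds the table's start of GCA, a calcium-binding protein gene that runs the other way. GCA was higher as well, at -1.63 in sgAAVS1, -1.89 in untransduced cells and 0.99 in PPHLN1 (2.62 ± 1.13). OAS3 (chr12:112938224-112938523, plus strand) has 2. A match is a description of the letters and not of a factor's binding.
SAMD9: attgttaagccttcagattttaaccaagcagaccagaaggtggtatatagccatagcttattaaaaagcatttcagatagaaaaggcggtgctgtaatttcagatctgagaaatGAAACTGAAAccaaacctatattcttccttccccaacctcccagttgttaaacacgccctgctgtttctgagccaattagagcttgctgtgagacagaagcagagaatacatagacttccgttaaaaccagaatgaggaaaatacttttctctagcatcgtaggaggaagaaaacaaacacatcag
IFIH1: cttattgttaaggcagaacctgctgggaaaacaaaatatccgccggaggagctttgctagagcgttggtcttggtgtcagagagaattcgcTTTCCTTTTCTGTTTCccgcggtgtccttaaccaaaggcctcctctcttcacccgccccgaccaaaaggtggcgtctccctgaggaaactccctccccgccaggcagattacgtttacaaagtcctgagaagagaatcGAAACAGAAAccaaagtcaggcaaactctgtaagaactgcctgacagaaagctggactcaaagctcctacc
OAS3: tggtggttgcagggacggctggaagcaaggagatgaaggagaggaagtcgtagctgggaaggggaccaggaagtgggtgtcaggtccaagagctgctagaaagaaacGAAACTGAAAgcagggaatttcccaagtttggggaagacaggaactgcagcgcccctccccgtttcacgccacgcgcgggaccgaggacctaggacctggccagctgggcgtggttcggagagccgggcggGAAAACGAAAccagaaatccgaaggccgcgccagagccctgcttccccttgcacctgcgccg

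Zinc finger genes of chromosome 19 gave more higher genes than any other list. Of 457 tested genes with a numbered ZNF symbol, 61 were higher than sgAAVS1 (13.3%), 45 were higher than both controls, and none was lower. On chromosome 19, 55 of 230 were higher (23.9%), with a median difference of 0.50, and 41 were higher than both controls. Against untransduced cells the median of the 230 was 0.32, since untransduced cells exceeded sgAAVS1 by a median of 0.19 in these genes and 0.05 over all. Other KRAB or SCAN zinc finger genes gave 2 higher of 39 tested (5.13%). On other chromosomes 6 of 227 numbered genes were (2.64%), close to the 2.8% of all genes, with a median of 0.24. Among the 213 chromosome 19 members with an sgAAVS1 mean above 0, 39 were higher and the median was 0.45. Chromosome 19 holds 8.43% of the genes tested and 36.2% of the genes higher than both controls. Genes of that chromosome without a zinc finger symbol were called higher in 41 of 1097 cases (3.74%). Related zinc finger genes share sequence, and the sources used here do not say how reads that fit several genes were counted.

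Well expressed members show that the group is not made of silent genes alone. ZNF850 stood at 6.66 in sgAAVS1, 6.86 in untransduced cells, 6.85 in TASOR, 8.02 in TASOR2, 7.69 in MPP8 and 7.94 in PPHLN1, a difference of 1.28 ± 0.08. TASOR lies with the controls for this gene, and TASOR2, MPP8 and PPHLN1 lie apart from them. ZNF136 went from 4.10 in sgAAVS1 and 4.35 in untransduced cells to 5.56 (1.47 ± 0.20), and ZNF772 from 4.05 and 4.40 to 5.63 (1.58 ± 0.20). ZNF200, on chromosome 16, went from 5.12 and 5.28 to 6.38 (1.26 ± 0.14).

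The widest differences came from genes that the controls barely expressed. ZIK1, which encodes a KRAB zinc finger protein, stood at 0.94 in sgAAVS1, 1.5 in untransduced cells, 2.89 in TASOR, 2.88 in TASOR2, 4.19 in MPP8 and 4.61 in PPHLN1 (3.67 ± 0.54). ZNF528-AS1, an antisense transcript, stood at 1.27, 1.43, 2.53, 2.73, 4.48 and 4.80 in the same order (3.53 ± 0.47). ZNF534 stood at 1.33, 1.22, 2.79, 2.06, 3.19 and 3.77, counting from sgAAVS1 to PPHLN1 as before (2.44 ± 0.49). All 3 rank the groups alike at the top, with PPHLN1 highest and MPP8 next. They were chosen for wide PPHLN1 differences, so the top rank of PPHLN1 is partly built in. ZNF660, on chromosome 3, had the largest difference of the list (4.45 ± 1.02), but untransduced cells stood at 2.23 and PPHLN1 at 3.2, so the sgAAVS1 mean of -1.24 is the value that stands apart.

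Higher genes lay next to each other. In the order of genes tested along each chromosome, 152 of the 446 higher genes (34.1%) were in 48 unbroken runs of at least 2, and of the 21 runs of at least 3, 15 were on chromosome 19. Of the 96 lower genes, 4 (4.17%) were in runs. Lower calls were rarer among the genes tested (0.603% against 2.8%), so fewer runs would form, and no expected share was computed. Some runs also hold rows that overlap, such as the 22 gamma protocadherins, and HLA-C with HLA-B. A run of 4 joined ZNF528-AS1, ZNF528, ZNF534 and ZNF578 (19: 52388842 to 52512154), with differences from 2.28 to 3.53, all passing against both controls. A run of 7 went from ZNF235 to ZNF229 (19: 44228729 to 44448578), with differences from 1.84 to 3.15, and a run of 6 from VN1R1, a pheromone receptor-like gene, to ZNF549 (19: 57454790 to 57557542), with differences from 1.58 to 2.17. The stretch from ZNF230 to ZNF112 overlaps the run of 7 and shares ZNF235, ZNF233 and ZNF112 with it. In that stretch 12 numbered zinc finger genes were tested, 7 were higher, and the other 5 differed by 0.76 to 0.98.

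Promoters of that cluster share a 9-base stretch, TTCTGGGAA, which was looked for after its repeats had been seen. By its letters it is 1 form of TTCNNNGAA, and whether STAT or any other factor binds it was not tested. TTCNNNGAA was in 13 of 48 windows of higher chromosome 19 zinc finger genes (27.1%) and in 19 of 153 windows of those not called (12.4%). The 9-base form was in 6 of those 13 windows and in 12 of those 19, so much of the count is this form alone. The 9-base form was in all 10 cluster genes that had a window, and in 1.03% of all RefSeq windows, on either strand. Its share was 12.5% in higher zinc finger genes of chromosome 19, 7.84% in those not called and 5.21% on other chromosomes. The 10 genes had differences from 0.76 to 2.16, and 5 of them were higher. ZNF225, with the smallest difference, held 4 copies and was not called. Outside the cluster, 8 chromosome 19 zinc finger genes held the same form, and 1 was higher (range 0.20 to 1.11), so most genes with the form outside the cluster were not called. The stretch is shown only for the 5 cluster genes with a window that were higher. It is given with 6 bases on each side, because its flanks are also alike. Uncalled cluster genes share these flanks: ZNF230 and ZNF224 each hold a copy with the same 6 bases on each side as ZNF222. Sequences run 5′ to 3′ on the coding strand, with the form in capitals. The nearest copy to the start is given for each (GRCh38.p14, chromosome 19).
ZNF222 (chr19:44025273-44025293, plus strand, difference 1.51 ± 0.29): ggggaaTTCTGGGAAgtggag
ZNF284 (chr19:44072085-44072105, plus strand, difference 1.93 ± 0.43): ggggaaTTCTGGGAAatgtag
ZNF234 (chr19:44141522-44141542, plus strand, difference 1.20 ± 0.22): ggggaaTTCTGGGAAatgtag
ZNF235 (chr19:44305046-44305066, minus strand, difference 1.95 ± 0.42): taggaaTTCTGGGAAgtggag
ZNF112 (chr19:44356701-44356721, minus strand, difference 2.16 ± 0.51): cgggaaTTCTGGGAAgcgtag

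Clustered protocadherins, cell adhesion molecules of neurons, were higher in every tested member. Of 53 listed genes, 22 were tested, all of the gamma cluster on chromosome 5 (141330571 to 141512981). All 22 were higher than sgAAVS1, beside 2.8% of all genes, and 10 were higher than both controls, beside 1.18%. None was lower. The differences ranged from 1.12 to 2.21, with a median of 1.67 against sgAAVS1 and 0.81 against untransduced cells, since 8 of the 22 were also higher in untransduced cells than in sgAAVS1. Of the 22, 14 had an sgAAVS1 mean above 0, and all 14 were higher. The others were tested only through a high PPHLN1 mean and so had to differ. PCDHGB2 stood at 2.70 in sgAAVS1, 3.28 in untransduced cells, 4.69 in TASOR, 2.77 in TASOR2, 4.31 in MPP8 and 4.91 in PPHLN1 (2.21 ± 0.30). PCDHGA4 stood at 3.15, 3.53, 4.95, 2.64, 4.83 and 5.19 in that order (2.04 ± 0.26). TASOR2 lies between the controls in PCDHGB2 and below them in PCDHGA4, and the other knockdowns lie above them in both. PPHLN1 exceeded TASOR2 by the rule in 17 of 22 members and TASOR in 0. Over all 15913 genes tested the counts were 783 and 210. Gamma genes share their last exons and their rows end at the same base or near it, so the 22 values are not independent.

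**Figure D3:**
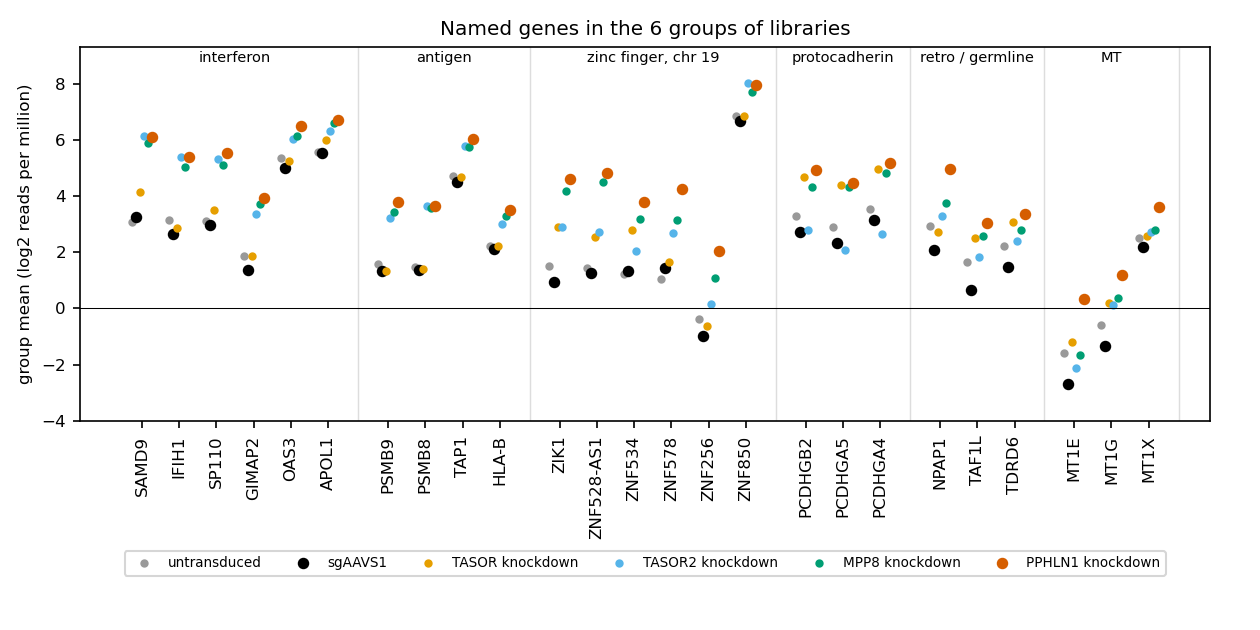
Group means (log2 CPM, vertical axis) of 25 named genes in the 6 groups, ordered by list. PPHLN1 (red-orange) stands above sgAAVS1 (black) throughout. TASOR (yellow) lies with the controls for IFIH1, PSMB9 and ZNF850, and TASOR2 (blue) lies between or below them for PCDHGB2, PCDHGA5 and PCDHGA4.

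Retrogenes, which are intronless copies made by reverse transcription, gave 6 higher of 23 tested (26.1%, beside 2.8% of all genes). All 6 passed against both controls. They were TAF1L, RNF113B, NPAP1, CETN1, RBMXL3 and DCAF8L1, and 3 of the 20 with an sgAAVS1 mean above 0 were among them. NPAP1, an intronless imprinted gene, stood at 2.09 in sgAAVS1, 2.93 in untransduced cells, 2.70 in TASOR, 3.28 in TASOR2, 3.74 in MPP8 and 4.96 in PPHLN1 (2.87 ± 0.36). It was higher in PPHLN1 than in each of the 5 other groups by the rule. TAF1L, a copy of a TFIID subunit gene, stood at 0.64, 1.64, 2.51, 1.82, 2.57 and 3.05 in that order (2.41 ± 0.65). Of 34 genes derived from transposons, 1 was higher (2.94%, beside 2.8% of all genes). It was ERVV-2, an endogenous retroviral envelope gene with an sgAAVS1 mean of -2.68, and 0 of the 31 with a mean above 0 were called.

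Germline genes gave 6 higher of 53 (11.3%, beside 2.8% of all genes). Of these, 2 passed against both controls: TDRD5 (2.15 ± 0.65) and TDRD6 (1.88 ± 0.49), Tudor-domain genes of the piRNA pathway. Inflammatory genes gave 2 higher of 23 (8.70%), IL6 and IL32, of which IL6 alone passed against both controls. IL32, a cytokine gene, had an sgAAVS1 mean of -0.44 and differed from untransduced cells by 0.86 ± 0.83, and among the 22 members with an sgAAVS1 mean above 0, 1 was higher. IL6, an acute-phase cytokine gene, stood at 1.3 in sgAAVS1, 1.54 in untransduced cells, 3.28 in TASOR, 1.53 in TASOR2, 3.3 in MPP8 and 3.64 in PPHLN1 (2.34 ± 0.50). As in the protocadherins, TASOR2 stood at the control level. Of 17 genes of epithelial, neural or mesenchymal tissue, 3 were higher than both controls (17.6%, beside 1.18% of all genes). They were COL28A1, a collagen gene, BDKRB1, a bradykinin receptor gene, and DSG1, a desmosome gene. BDKRB1 and DSG1 had sgAAVS1 means below 0 and so had to differ to be tested, and of the 15 members with a mean above 0, 1 was higher. DSG1 stood at -0.80 in sgAAVS1, 0.34 in untransduced cells and 1.65 in PPHLN1.

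Metallothioneins, small proteins that bind zinc and copper, were picked out after their values had been seen, because 3 of them formed a run on chromosome 16 (56625475 to 56687807). MT1E stood at -2.68 in sgAAVS1, -1.60 in untransduced cells and 0.33 in PPHLN1 (3.01 ± 1.07, from 1 or 2 reads in the sgAAVS1 libraries), and its other means lay between -2.13 and -1.21. MT1G stood at -1.33, -0.60 and 1.18 (2.51 ± 1.13), and MT1X at 2.20, 2.50 and 3.61 (1.42 ± 0.39). All 3 passed against both controls, while MT2A (0.96 ± 0.27) did not. PPHLN1 held the highest mean of the 6 groups in each of these 4 genes. Because the list was picked after a run of higher genes was seen, that rank is partly built in. The genes are near-identical in sequence, and their reads may be shared.

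Erythroid genes gave 3 higher of 56 (5.36%, beside 2.8% of all genes): SLC4A1, an anion exchanger gene, CA1, a carbonic anhydrase gene, and CD36, a fatty acid receptor gene. None of the 3 passed against untransduced cells, and all 3 fell below the threshold under median centring and under quantile normalization. None of 10 globin genes was called, although 10 of 10 lay above the median of all genes, with a median difference of 0.44. Megakaryocyte and myeloid genes gave 1 higher of 27 (3.70%, near the share of all genes): TUBB1, a platelet tubulin gene, which went from 3.34 to 4.48 (1.14 ± 0.27). It is no longer called under median centring (0.93) or quantile normalization (0.89). Of 34 genes of the ATF4 and unfolded protein response, 54 histone genes, 39 cell cycle genes, 78 ribosomal protein genes and 13 mitochondrially encoded genes, 0 were called. Their medians lay between 0.15 and 0.21, beside 0.17 for all genes.

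No gene list had more than 1 lower gene. Over all genes tested 0.603% were lower, a share that gives few in lists of these sizes. Of the 96 lower genes, 8 had an sgAAVS1 mean above 4, and all 8 were lower than both controls. C15orf57, named CCDC32 in GENCODE and known for its part in clathrin adaptor assembly, stood at 6.28 in sgAAVS1, 6.28 in untransduced cells, 6.43 in TASOR, 6.30 in TASOR2, 6.23 in MPP8 and 4.18 in PPHLN1 (-2.10 ± 0.21). DRAM1, a p53 target that acts in lysosomes and autophagy, stood at 4.80, 4.98, 4.76, 5.42, 4.95 and 2.36 in that order (-2.45 ± 0.39). MGST1, a membrane-bound glutathione transferase gene, stood at 4.16, 4.39, 4.30, 4.68, 4.19 and 2.38 (-1.78 ± 0.40). In all 3 the 5 other groups lie close together and the PPHLN1 group lies apart. DRAM1 was the only call among 49 autophagy and lysosome genes, and MGST1 the only call among 30 glutathione and oxidative stress genes. A single call is too few to set against the 0.603% of all genes. The medians of those lists were 0.17 and 0.18.

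The other well expressed lower genes had smaller differences. SPIDR, a DNA repair scaffold gene, went from 6.62 in sgAAVS1 to 5.06 (-1.56 ± 0.16), UBL7, a ubiquitin-like protein gene, from 5.65 to 4.25 (-1.40 ± 0.21), PRKCI, an atypical protein kinase C gene, from 7.08 to 5.90 (-1.19 ± 0.12), and PLXNB2, a semaphorin receptor gene, from 7.91 to 6.87 (-1.03 ± 0.09). Among lower genes with smaller control means, TMEM92, a transmembrane protein gene, went from 2.93 to 0.54 (-2.38 ± 0.79) and FAM161A, a ciliary gene, from 2.30 to -0.25 (-2.55 ± 1.08). Chromosome 12, which holds PPHLN1, had 15 of the 96 lower genes (1.70% of its 880 tested genes) and 8 of the 48 that were lower than both controls. DRAM1 and MGST1 are among them and lie far from PPHLN1. Over the 588 genes of chromosome 12 with an sgAAVS1 mean above 4 the median difference was 0.15, beside 0.17 over all genes with such a mean.

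**Figure D4:**
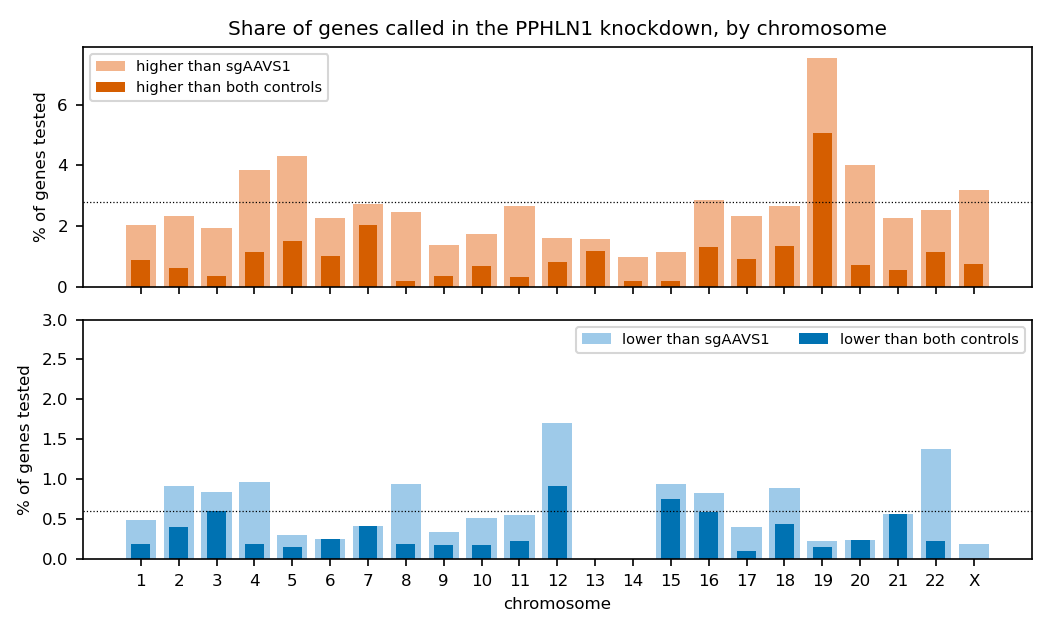
Percentage of tested genes on each chromosome that were called higher (upper panel) or lower (lower panel) in PPHLN1, against sgAAVS1 (pale bars) and against both controls (dark bars). Dotted lines mark the share over all genes (2.8% and 0.603%), and chromosome 19 stands out above (7.53%) and chromosome 12 in the lower panel (1.70%).

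The deposited mean of 2 libraries also holds the product of their read counts, and for products up to 200000 that product could be read as a whole number (within 0.25). The pairs of whole numbers with that product are then the only read counts the 2 PPHLN1 libraries can have had. Each library carries its own guide, so guide and library cannot be told apart, and which of the pair belongs to which guide is not known. The product was resolved for 9493 of the genes tested. In 16 of them (0.169%) every possible pair differed at least 4-fold with at least 10 reads in the larger. Those 16 held 6 of the 92 resolved lower genes (6.52%) and 0 of the 427 resolved higher genes. In the MPP8 knockdown, which also has 2 libraries, the count was 8 of 9681 (0.0826%). For a given number of reads, an uneven pair gives a lower mean of log2 values than an even one. Uneven genes are thus drawn toward the lower calls, and the contrast between lower and higher PPHLN1 genes is partly built in.

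For those lower genes the 2 libraries did not change alike. TMEM92 can only have had 0 reads in one library and 84 in the other, where 45.3 per library would match the sgAAVS1 level. Its 84 reads in all are 92.7% of what the sgAAVS1 level would give in both, so its low mean of log2 values comes from the library with 0. FAM161A can only have had 0 and 28 reads, with 29.3 per library at the sgAAVS1 level, and the lncRNA AP000253.1 only 0 and 11, with 16.5. SPIDR had 61 and 647 reads, or 1 and 39467, with 585 per library at the sgAAVS1 level. CTD-3222D19.4 had 5 and 23 or 1 and 115 (22.7 at the sgAAVS1 level), and ECHDC2, a gene named for a mitochondrial hydratase domain, 3 and 19 or 1 and 57 (17.9). In each of these 6 genes the most even pair has one library below the sgAAVS1 level by a wide margin; the other ranges from 11 reads against 16.5 in AP000253.1 to 84 against 45.3 in TMEM92.

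Other lower genes allow less. DRAM1 had 17 and 55 reads, 11 and 85, 5 and 187, or 1 and 935, where 167 per library would match sgAAVS1, so its libraries differed at least 3-fold and in the first 2 cases both were below the control level. C15orf57 allows 6 pairs, of which 92 and 127 is the most even (462 at the sgAAVS1 level), MGST1 allows 6, from 22 and 44 (107 at that level), and PRKCI allows 8, from 254 and 497 (808). For PPHLN1 itself 27 pairs are possible, from 225 and 236 (565 at the sgAAVS1 level), so the strength of each guide cannot be read from the table. Among higher genes the most even pair was within 2-fold for 408 of 427 (95.6%). SAMD9 allows 405 and 410 (56.2 at the sgAAVS1 level), IFIH1 226 and 280 (37.2), ZIK1 133 and 159 (11.4) and NPAP1 174 and 199 (25.4). An even pair is only 1 of the pairs a higher gene allows, so this shows that even libraries are possible and not that they were even.

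**Figure D5:**
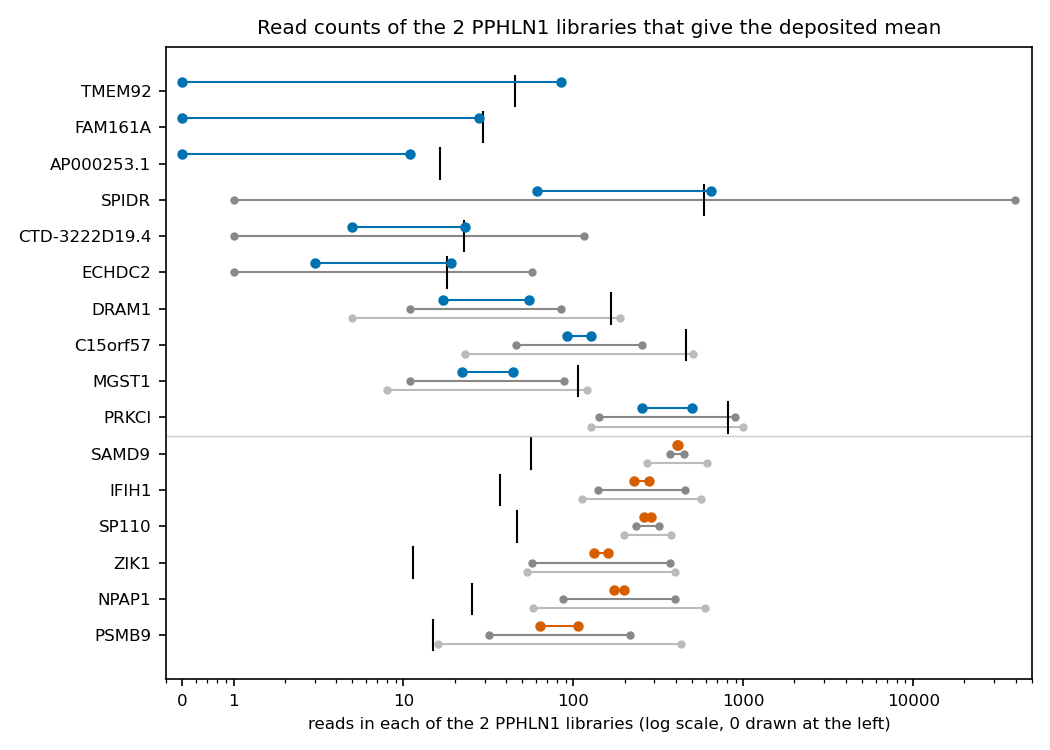
Read counts (log axis, 0 drawn at the left) that the 2 PPHLN1 libraries can have had for 10 lower and 6 higher genes; each line joins a possible pair, coloured for the most even and grey for the next 2 where they exist. Black ticks mark the reads per library at the sgAAVS1 level, and TMEM92 and FAM161A allow only a pair with 0 reads.

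Set against the other knockdowns directly, with no control in the comparison, PPHLN1 differed from MPP8 in fewer of these genes than from TASOR or TASOR2. Of the 188 genes higher than both controls, 26 were higher in PPHLN1 than in MPP8, 97 than in TASOR and 87 than in TASOR2, and 0 were lower than in any of the 3. Over all 15913 genes tested the counts higher in PPHLN1 were 132, 210 and 783 in that order. The comparisons thus also differ outside the 188, most of all for TASOR2. The median PPHLN1 minus MPP8 difference over the 188 was 0.47, and since the genes were chosen for a high PPHLN1 mean, a positive value is built in. Of the 27 higher interferon genes, PPHLN1 held the highest mean in 20 and TASOR2 in 5. These 27 were also chosen for a high PPHLN1 mean, so its rank there is partly built in. By the rule, 0 of 125 interferon members were higher in PPHLN1 than in MPP8, 0 than in TASOR2 and 19 than in TASOR. By the rule of size, PPHLN1 was called higher than each of the 5 other groups in 9 genes. SIRPB2, a signal-regulatory protein gene, stood at 1.59 against -1.80 to -0.41, and HTRA3, a serine protease gene, at 1.84 against -0.21 to 0.61. ZNF578 stood at 4.23, with MPP8 next at 3.14. By the same rule it was called lower than each of the 5 in 16 genes, RP11-351C21.2, C15orf57, TMEM92 and FAM161A among them. FAM43A, a gene of unclear function, stood at 0.83 against 2.41 to 2.78.

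The called genes differed in kind from the rest. Of 15913 genes tested, 98.2% were matched to GENCODE. Genes with only single-exon transcripts made up 47.9% of the lower genes, 11.6% of the higher genes and 7.64% of all. Protein-coding genes made up 35.1% of the lower, 68.5% of the higher and 82.8% of all. The median span was 3412 bases for lower genes, 17805 for higher genes and 25171 for all. Low expression goes with these shares: in the band where the PPHLN1 and sgAAVS1 means average below 0, 28.2% of 436 genes were called higher and 9.86% lower, while above 6 the shares were 0.0735% and 0.0294% of 6805 genes.

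The threshold of 1 is not a natural break. Among genes with an sgAAVS1 mean above 4, ZNF530 (1.0), ZNF594 (1.03) and TFPI (1.03), a clotting inhibitor gene, lay just inside it on the higher side. TIGD7 (0.99), GPR158 (0.98) and IFI35 (0.95), an interferon-induced gene, lay just outside. On the lower side PLXNB2 (-1.03), PRKCI (-1.19) and PPHLN1 (-1.29) lay just inside, and ZCRB1 (-0.89), LL22NC03-2H8.5 (-0.89) and PTP4A1 (-0.87), a phosphatase gene, just outside.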

How the data were processed

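Total RNA was sequenced after ribosomal RNA depletion with a strand-specific kit, per the labels' protocols, from K562 cells in 14 libraries of 6 groups. Cutadapt and Bowtie2 were used with build hg38, per the submitters' processing notes; the sources used here name neither the read counter nor its use of strand. The authors deposited, as its file headers and values show, a log2 group mean for untransduced cells and, for every other group, a ratio of its log2 mean to that value. Multiplying them gave back the log2 means. Low values were whole reads in 100% of cases within a relative tolerance of 0.001 (0 reads set to 0.9), which gave depth, the number of libraries in each mean and, for 2 libraries, the product of their read counts. Rows sharing a symbol were reduced to 1 (87 dropped). A test over libraries needs single values, so the rule of size stands in its place, as planned for this case. The rule and the recovery of read pairs were tested on simulated data. Members, gene lists and named genes were chosen with earlier results of these data known. Named genes are the subunits and neighbours, the widest calls against both controls, the widest calls of each list and of the comparison with all groups, the best expressed interferon genes of each role, and genes next to the threshold; THBD, AP000253.1, CTD-3222D19.4, ECHDC2, the metallothioneins, SAMD9L, the TTCTGGGAA cluster genes and members listed by role were named after their values were seen. Annotation came from GENCODE v29 and promoters from RefSeq (GRCh38.p14); windows over 1000 bases from the gene were not used. Python 3.11.15, pandas 2.3.3, numpy 2.4.6 and scipy 1.17.1 were used. The TASOR2 mean holds 2 of the 3 libraries in the labels. Alternatives covered the scaling, GC content, the control, the filter on low values, the size threshold, the interval and shared symbols.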

Additional observations from a re-analysis of the deposited data

How the results depend on the processing

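The count higher than sgAAVS1 (446) became 273 with each group centred on its median, 251 with quantile normalization, 242 with untransduced cells as control, 175 with a higher mean above 2 and 224 at a difference of at least 1.5. The count lower (96) became 146 and 202 under the 2 scalings, 26 with a higher mean above 2, 182 with no filter on low values and 57 at a difference of at least 1.5. Against both controls the count higher (188) became 125 with centring, 105 with a higher mean above 2 and 94 at 1.5, and the count lower (48) became 85 with quantile normalization, 16 with a higher mean above 2, 93 with no filter and 27 at 1.5. The protocadherin count of 22 became 10 with untransduced cells as control and 11 with a higher mean above 2. At a difference of at least 1.5 the interferon count of 27 became 15 and the zinc finger count of 61 became 37, and PPHLN1 itself (-1.29) was no longer called. The zinc finger count lower, 0, became 1 with centring, with quantile normalization and with untransduced cells as control. Without the genes whose 2 PPHLN1 libraries must differ at least 4-fold, an alternative chosen after seeing the data, 446 were higher and 90 lower than sgAAVS1, and 188 and 43 against both controls. The GC correction, all rows kept and no counting interval left these counts within 1.5 times. Of the named genes called against sgAAVS1, 0 changed direction under any alternative. Named genes without a call could change sign: YAF2 differed by 0.12 from sgAAVS1 and by -0.12 from untransduced cells. No paired analysis was possible because the table holds group means only, and for the same reason no library could be left out. Values with an sgAAVS1 mean below 0 rest on few reads, which limits both direction and size there.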
